A study of Mus musculus with 6 samples.

Results

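The hairpins described here are 9 microRNA (miRNA) precursors that gave nearly equal numbers of reads from their 5p and 3p arms in the adult mouse heart: miR-151, miR-335, miR-339, miR-345, miR-350, miR-423, miR-455, miR-676 and miR-872. They were chosen from the measured values, as named hairpins whose sense entries averaged at least 100 reads over both arms together and differed by under 2-fold between arms. Of 331 hairpins with an entry for both arms, 154 reached that number of reads and 12 of those were under 2-fold (7.79%). The 9 hairpins are the named ones among these 12, and the other 3, miR-212, let-7d and miR-145, are used only for comparison. Because the ratio and the minimum level chose the hairpins, both are given as descriptions with no test.

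A hairpin precursor is cut by Drosha in the nucleus and by Dicer in the cytoplasm, which leaves a short duplex of its 5p and 3p arms. One strand of the duplex is usually kept in an Argonaute protein as the guide and the other is discarded, so most hairpins are known for a single active arm. The strand whose 5′ end is less tightly paired, and strands that start with U or A, are known to be favoured as guides. Where both arms are kept, 1 transcript supplies guides with different seeds, the bases 2 to 8 that pair with target transcripts.

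Small RNA was sequenced from the hearts of 6 male mice, wild type, of the strain C57BL/6J and 18 weeks old, with 1 library per heart, numbered heart 1 to heart 6 as in the labels. C57BL/6J is a common inbred laboratory strain, all 6 mice belong to 1 group, and no treatment is named, so every comparison is between hearts or between hairpins. The labels give the tissue as whole heart but the protocol describes the frozen apex of the ventricles. Adapters were ligated to both RNA ends, a step whose yield depends on the end sequence, so a ratio of arms is a ratio of reads and not of molecules. Whether 2 hearts came from separate litters or batches is not given, and p-values concern the spread between these libraries, which includes library preparation.

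The libraries held between 3966169 and 6007322 counts, so 10 reads correspond to 1.66 to 2.52 CPM (counts per 1000000 counts of the library). Levels are in scaled CPM, in which the library size was first adjusted by TMM scaling in edgeR. The summed level of the 4 muscle markers miR-1a-3p, miR-133a-3p, miR-208a-3p and miR-499-5p was 90194 to 106077 scaled CPM, and none of them was at 0 in any heart. Hearts 4 and 5 stood apart in other markers. The 2 cartilage markers miR-140-3p and miR-140-5p summed to 1996 scaled CPM in heart 5 and 638 to 940 in the other hearts. The 3 pancreas markers summed to 25.9 scaled CPM in heart 4 and 0.655 to 2.07 in the other hearts. Most of the sum in heart 4 was miR-375-3p, at 21.7. There miR-216a-5p and miR-217-5p were at 2.33 and 1.86, close to the level of 10 reads, and both were at 0 in some hearts. The sum of the 2 erythroid markers ranged from 2011 in heart 4 to 5917 in heart 1.

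All 9 hairpins lie in introns of protein-coding genes on the strand of the gene (GRCm38, GENCODE vM21, position of the hairpin). Among all tested hairpins with a sense entry this held for 62 of 163 (38.0%), and among the 12 under 2-fold for 9, that is for none of the 3 others. miR-151 (Mir151, chr15:73254815-73254882, minus strand) lies in Ptk2, which encodes focal adhesion kinase. miR-335 (Mir335, chr6:30741299-30741396, plus strand) lies in Mest, an imprinted gene expressed from the paternal allele. miR-423 (Mir423, chr11:77078064-77078172, minus strand) lies in Nsrp1, which encodes a splicing regulator, and miR-345 (Mir345, chr12:108836973-108837068, plus strand) in Slc25a47, a mitochondrial carrier gene. miR-872 (Mir872, chr4:94665157-94665237, plus strand) lies in Ift74, which encodes a protein of intraflagellar transport. miR-455 (Mir455, chr4:63256851-63256932, plus strand) lies in Col27a1, a fibrillar collagen gene active in cartilage. miR-676 (Mir676, chrX:100381097-100381185, plus strand) lies in Eda, which encodes the signalling protein ectodysplasin A. miR-339 (Mir339, chr5:139369650-139369745, minus strand) lies in 3110082I17Rik, and miR-350 (Mir350, chr1:176772325-176772423, minus strand) in Cep170, which encodes a centrosomal protein. No other annotated miRNA lay within 10 kb of any of them, so each is a single hairpin and not part of a cluster.

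The mature arms are shown for 5 of the hairpins on which the results turn, from RefSeq (GRCm38.p6), with the seed in capitals, 5′ to 3′, to show what each arm would recognise.
miR-335-5p: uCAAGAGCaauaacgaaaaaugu
miR-335-3p: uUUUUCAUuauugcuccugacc
miR-423-5p: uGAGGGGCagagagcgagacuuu
miR-423-3p: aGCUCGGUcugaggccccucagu
miR-345-5p: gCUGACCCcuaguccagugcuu
miR-345-3p: cCUGAACUaggggucuggagac
miR-872-5p: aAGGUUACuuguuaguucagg
miR-872-3p: uGAACUAUugcaguagccuccu
miR-455-5p: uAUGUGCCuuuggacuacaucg
miR-455-3p: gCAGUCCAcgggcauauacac
Of the 18 arms 15 had a RefSeq mature sequence, and these 15 held 15 different seeds, so none of them shares a seed with another. Both arms of miR-151 and miR-676-5p had no sequence and could not be compared. A sequence was matched to 802 of the 1026 sense entries, and among these 1 miRNA of another hairpin shared a seed with one of the 15 arms. It was miR-5129-3p (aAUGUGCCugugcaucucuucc), which has the seed of miR-455-5p and averaged 1.33 reads. Among the same sequences, none of another hairpin shared the first 18 bases of one of these 15 arms. In the deposited counts both arms of miR-345 start 1 base upstream of RefSeq, and the 5p arm is 21 bases long against 22. The seeds shown are those of RefSeq. The other 13 matched arms are at the same positions in both.

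The hairpin of miR-335 shows how a precursor holds both products. In it (plus strand, RefSeq), the capitals mark the 5p arm, then the loop in lower case, then the 3p arm.
miR-335: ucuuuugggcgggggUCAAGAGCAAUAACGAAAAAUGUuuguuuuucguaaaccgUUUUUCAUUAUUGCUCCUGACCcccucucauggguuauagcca
Both arms of miR-335 start with U, as do both arms of miR-339, and this held for 2 of the 7 members with both sequences (28.6%) and for 12 of 134 tested hairpins with both sequences (8.96%). In these 7 members the arm with more reads started with U in 4 and the arm with fewer reads also in 4. Over the 134 hairpins the corresponding numbers were 74 (55.2%) and 24 (17.9%). The arm with more reads had fewer G or C among its first 4 bases in 2 members (miR-335 and miR-455), the same number in 3 and more in 2. Over the 134 hairpins it had fewer in 62 (46.3%), and over the 71 with a ratio of at least 16-fold in 39 (54.9%). With 7 hairpins these shares are descriptions only, and the arm with more reads is taken from the mean counts. For miR-335, miR-339 and miR-455 it was not the same arm in every heart.

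**Figure D1:**
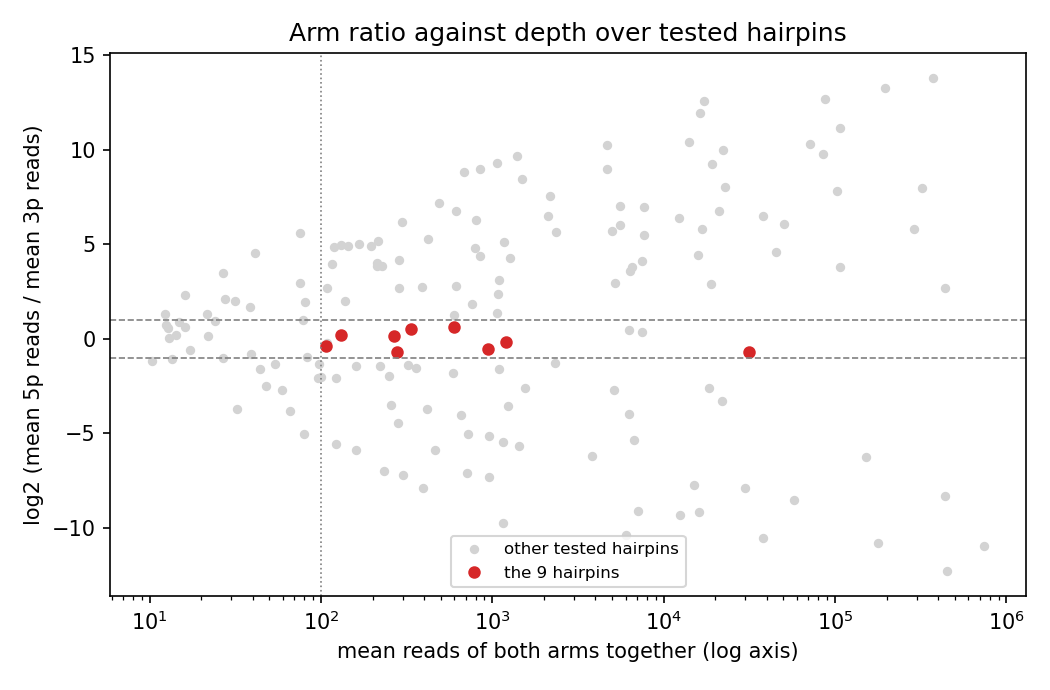
The log2 ratio of mean 5p to mean 3p reads (vertical axis) is plotted against the mean reads of both arms together (horizontal log axis) for the 169 tested hairpins, with dashed lines at 2-fold and a dotted line at 100 reads. The 9 hairpins (red) lie between the dashed lines from 107 to 31430 reads, while the other hairpins (grey) spread over a far wider range of ratios.

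From the mean counts over the 6 libraries, 5 of the 9 hairpins gave more 3p reads (miR-151, miR-335, miR-350, miR-423 and miR-676) and 4 gave more 5p reads (miR-339, miR-345, miR-455 and miR-872). The ratio between arms ran from 1.10-fold for miR-335 to 1.64-fold for miR-676. Just inside the 2-fold threshold were miR-676 and miR-151 (1.63-fold), and just outside it miR-106b (2.36-fold) and miR-144 (2.45-fold). Among hairpins under 2-fold, miR-350 (107 reads) was just above 100 reads, and just below were miR-362 (83.3 reads, 1.94-fold) and miR-219 (39.2 reads, 1.73-fold). By the size of the ratio, the hairpins with a mean of at least 100 reads most like the 9 were miR-212 (1.18-fold), let-7d (1.28-fold) and miR-145 (1.41-fold). Over the 54 combinations of a hairpin and a heart, 5p was higher in 23 and 3p in 31, and the ratio reached 2-fold in 2, miR-350 in heart 4 and miR-423 in heart 2.

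The arm with more reads was the same in all 6 hearts for 6 hairpins and changed between hearts for 3, miR-335, miR-339 and miR-455. The exact binomial (Clopper-Pearson) 95% interval of the 5p share lay wholly on one side of 50% in 34 of the 54 combinations. It held 50% in each heart where the other arm of these 3 was ahead, so no switch beyond counting error was shown. For miR-350, with 3p ahead in each heart, the interval held 50% in 4 of 6 hearts. These intervals cover counting error only, as the reads carry no molecular identifiers.

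**Figure D2:**
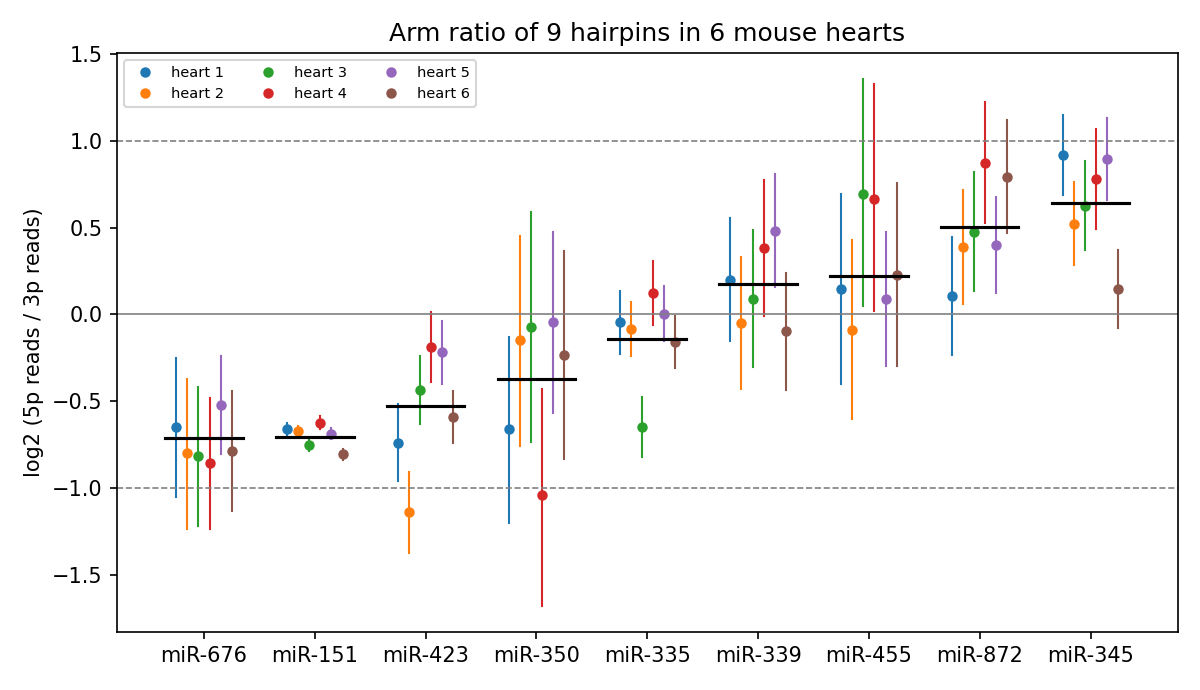
The log2 ratio of 5p to 3p reads (vertical axis) is shown for each hairpin in each of 6 hearts (colours), with exact binomial 95% intervals as vertical lines, the ratio of mean counts as a black bar and dashed lines at 2-fold. miR-151 and miR-676 stay on the 3p side and miR-345 and miR-872 on the 5p side in 6 of 6 hearts, while miR-335, miR-339 and miR-455 lie on both sides of 0.

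miR-151, known for roles in cell migration, was the deepest of the set and had the steadiest ratio. Its 5p and 3p arms had 10297 and 16278 reads in heart 1, 12325 and 19661 in heart 2, 12078 and 20355 in heart 3, 10732 and 16527 in heart 4, 12752 and 20534 in heart 5, and 13482 and 23561 in heart 6. The 5p reads per 3p read were 0.633, 0.627, 0.593, 0.649, 0.621 and 0.572 in hearts 1 to 6. Every heart thus gave more 3p than 5p, with a 5p share of 38.1% ± 1.09 (SD, n = 6). The log2 ratio had an SD of 0.07 over hearts, which was 3.96 times the 0.02 that counting alone gives at this depth, so even this narrow spread was larger than counting noise (chi-square test, adjusted p = 4.90e-15).

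miR-335, studied for its effects on cell invasion, was the most balanced hairpin by mean counts (1.10-fold), closely followed by miR-339 (1.13-fold). Without heart 5 miR-339 was nearer to balance, with a log2 ratio of 0.096 against -0.170 for miR-335. The 5p reads of miR-335 per 3p read were 0.969, 0.943, 0.639, 1.09, 1.003 and 0.896 in hearts 1 to 6. In 4 of these 6 hearts 3p was ahead, and in hearts 4 and 5 5p was ahead. Heart 3 stood alone, with 458 reads of 5p and 717 of 3p and a 5p share of 39.0% (exact 95% interval 36.2% to 41.8%), against 47.3% to 52.1% in the other 5. The arm share of miR-335 differed between hearts beyond counting noise (chi-square test, adjusted p = 3.00e-08), and this rested on heart 3, since without it the adjusted p was 0.338.

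miR-423, whose 5p arm is known as a circulating marker in heart failure, had the widest range among the deeper hairpins. Its 5p reads per 3p read were 0.600, 0.454, 0.741, 0.878, 0.860 and 0.663 in hearts 1 to 6. The 3p arm led in each heart, by 2.20-fold in heart 2 (226 against 498 reads) and by 1.14-fold in heart 4 (383 against 436 reads). The 5p share was 40.7% ± 5.86 (SD, n = 6), and the log2 ratio had an SD of 0.36, which was 3.59 times that of counting alone (chi-square test, adjusted p = 6.31e-10).

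miR-345 led with its 5p arm in every heart. Its 5p reads per 3p read were 1.89, 1.44, 1.54, 1.72, 1.86 and 1.11 in hearts 1 to 6. Heart 6, with 343 reads of 5p and 310 of 3p, was the closest to balance, and the other 5 hearts had at least 58.9% of reads from 5p. The arm share differed between hearts (chi-square test, adjusted p = 4.22e-05), and this too rested on 1 library, since without heart 6 the adjusted p was 0.188.

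miR-872 also led with its 5p arm in every heart, with 1.08, 1.31, 1.39, 1.83, 1.32 and 1.73 reads of 5p per 3p read in hearts 1 to 6. Its 5p share was lowest in heart 1 (51.9%) and highest in heart 4 (64.7%). The difference between hearts passed the threshold narrowly (chi-square test, adjusted p = 0.0371, 0.0203 to 0.198 over the alternatives). It was lost without heart 1 (adjusted p = 0.198), heart 4 (0.160), heart 6 (0.0909), or hearts 4 and 5 together (0.104).

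The arm shares of the other 4 hairpins did not differ beyond counting noise at this depth, which for them was 107 to 278 reads per library on average. miR-676 had 0.638, 0.575, 0.568, 0.553, 0.697 and 0.580 reads of 5p per 3p read in hearts 1 to 6, so 3p led in each. The SD of its log2 ratio, 0.13, was below the 0.18 of counting alone (chi-square test, adjusted p = 0.747). miR-339 had 1.15, 0.967, 1.07, 1.30, 1.40 and 0.935, with 3p ahead in hearts 2 and 6 (adjusted p = 0.213). miR-455 had 1.11, 0.941, 1.62, 1.59, 1.06 and 1.17, with 3p ahead in heart 2 alone (adjusted p = 0.418). miR-350 had 0.633, 0.902, 0.952, 0.486, 0.969 and 0.852, with 3p ahead in each heart and by 2.06-fold in heart 4, where 34 and 70 reads were counted (adjusted p = 0.189). A miss of the threshold at such depths does not show that these shares are the same in all hearts.

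In all, the arm share differed between hearts in 5 of the 9 hairpins, against 64 of all 169 tested (37.9%) and 59 of the 134 tested with a mean of at least 100 reads (44.0%). Without heart 6 the count of members was 3. Depth of the weaker arm also bears on it. Among hairpins whose weaker arm averaged at least 46.5 reads, the lowest such value of a member, 70.1% were called (47 of 67). The members' share was not above this. The set has no upper limit of depth, with 59464 reads in the weaker arm of miR-126, so it is not matched to the members. The median SD of the log2 ratio over hearts was 0.28 for the 9, 0.23 for the 58 other hairpins above this minimum and 0.39 for all tested. After taking out the counting part the medians were 0.23, 0.20 and 0.19 in the same order. let-7d and miR-145, also under 2-fold, were called as well (adjusted p = 9.79e-41 and 2.21e-29, chi-square test), with SDs of 0.21 and 0.18. miR-212, also under 2-fold but with a mean of 109 reads, was not called (adjusted p = 0.199, chi-square test), with an SD of 0.37.

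**Figure D3:**
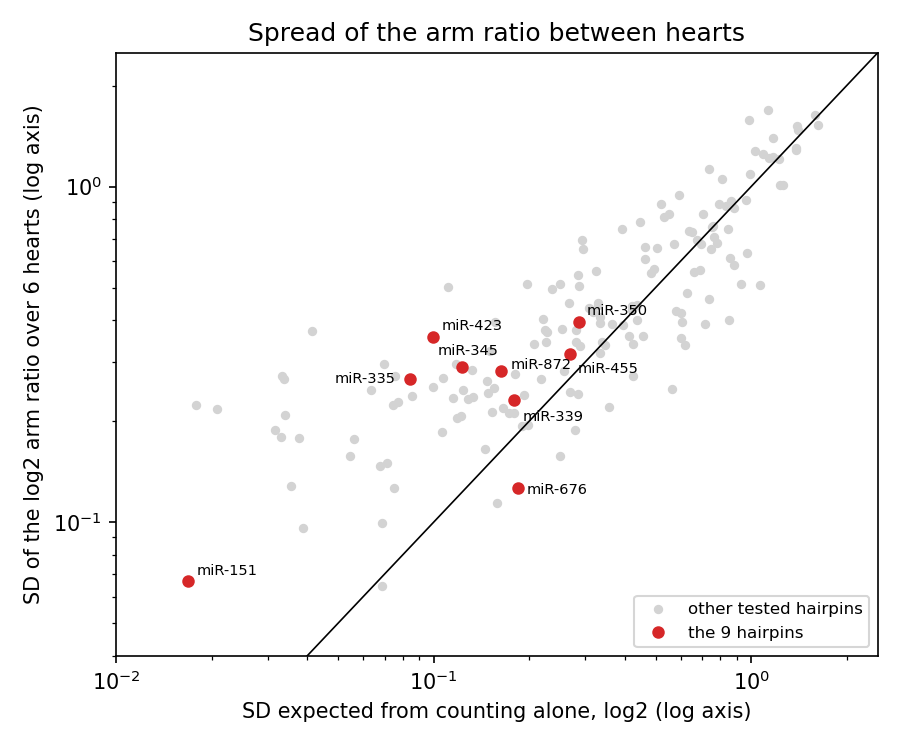
The SD of the log2 arm ratio over 6 hearts (vertical log axis) is plotted against the SD that counting alone gives (horizontal log axis) for the 169 tested hairpins, with the line of equality in black. miR-423, miR-335, miR-345 and miR-151 lie well above the line, at 2.35 to 3.96 times the counting SD, and miR-676 lies below it, at 0.683 times.

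The levels of the 9 hairpins, both arms together, spanned from 21.9 scaled CPM for miR-350 to 6457 for miR-151, and all 9 summed to 0.724% of the scaled libraries. miR-151 ranked 22 among the hairpins with both arms, miR-335 ranked 77, and the other 7 ranked 90 to 153. miR-151 ran from 5309 over a median of 6534 to 7702 scaled CPM and lay at least 23.7-fold above miR-335 in each heart. miR-335 followed at 248 ± 32.5 (SD, n = 6), then miR-423 at 192 ± 51.1, miR-345 at 122 ± 17.1 and miR-872 at 67.9 ± 3.22. miR-676 stood at 55.7 ± 9.88, miR-339 at 53.9 ± 3.30, miR-455 at 25.8 ± 5.91 and miR-350 at 21.9 ± 3.65. Of the 8 pairs of neighbours in this order, 4 overlapped in their ranges over hearts: miR-335 with miR-423, miR-872 with miR-676, miR-676 with miR-339, and miR-455 with miR-350. These neighbours were not apart beyond their ranges, and the order held in 5, 5, 4 and 4 of 6 hearts in turn. For miR-872 and miR-676 the remaining heart was a tie, at 443 reads each in heart 5, and not a reversal.

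**Figure D4:**
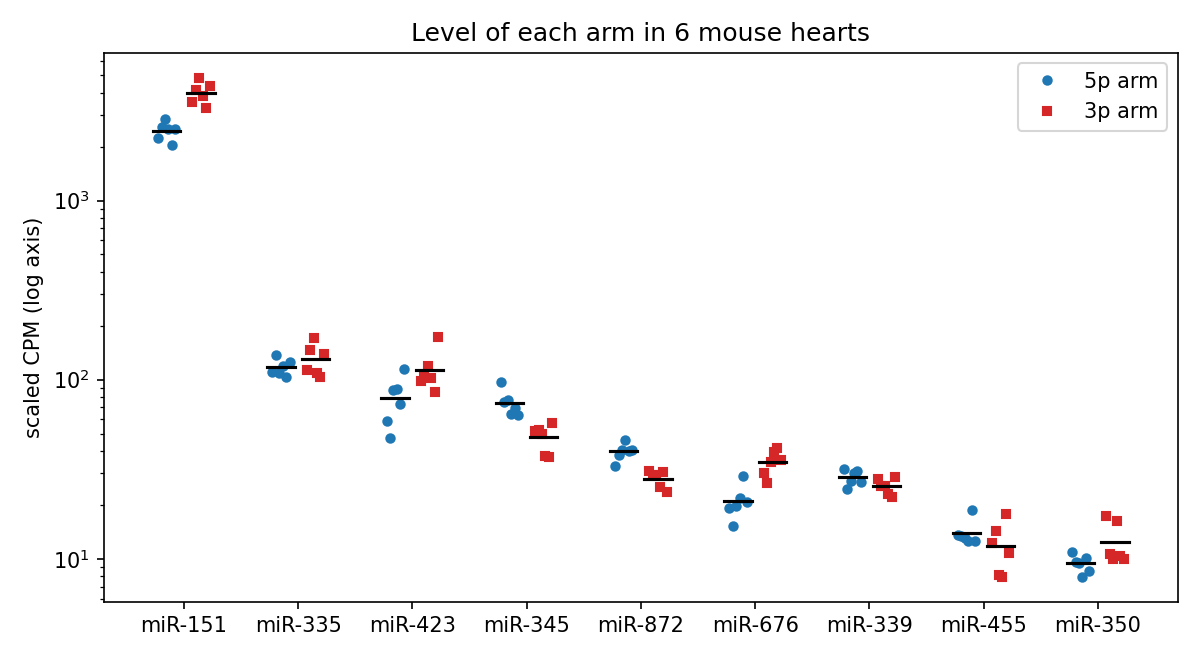
The level in scaled CPM (vertical log axis) of the 5p arm (blue circles) and the 3p arm (red squares) is shown in each of 6 hearts, with black bars at the means, for the 9 hairpins in order of level. The clouds of both arms overlap for miR-335, miR-423, miR-676, miR-339, miR-455 and miR-350, and are apart for miR-151, miR-345 and miR-872.

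Both arms of a hairpin can also change together. Of the 18 arms, 12 differed in level between hearts beyond counting noise (chi-square test against the TMM-scaled library sizes, adjusted p under 0.05), against 240 of all 348 tested arms (69.0%). Of the 14 member arms with a mean of at least 100 reads 10 differed, against 185 of 208 such arms (88.9%). The median coefficient of variation (CV) was 16.5% over the 18 arms and 16.9% over all tested, and among arms averaging 100 reads or more it was 15.2% over 14 member arms and 12.2% over all 208. The 6 of the 18 arms that did not pass the test were both arms of miR-339 and of miR-872, miR-350-5p and miR-455-5p.

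miR-423 varied most as a hairpin, with a CV of 26.6%. Both arms were highest in heart 6. miR-423-5p ran from 47.5 in heart 2 over a median of 80.7 to 114 scaled CPM in heart 6, and miR-423-3p from 85.3 in heart 5 over a median of 103 to 172 in heart 6 (adjusted p = 1.62e-36 and 2.77e-46). The lowest heart thus differed between the arms, and the low 5p level of heart 2 is also where the ratio was widest.

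miR-455 and miR-676 were highest in heart 5. The cartilage, fibroblast and mesenchymal, smooth muscle and Dlk1-Dio3 markers were also highest in that heart. miR-455-5p lay at 18.8 scaled CPM in heart 5 and at 12.6 to 13.5 in the other 5 hearts. Its adjusted p was 0.0520, and it passed the threshold with library totals (0.0117) or with DESeq2 size factors (0.0301), while without heart 5 it was 0.995. miR-455-3p lay at 17.7 in heart 5 and between 7.92 and 14.3 in the others (adjusted p = 2.60e-05, and 0.0715 without hearts 4 and 5). The 2 fibroblast and mesenchymal markers miR-199a-3p and miR-214-3p summed to 4804 scaled CPM in heart 5 and to 2623 to 3276 in the others. The 2 smooth muscle markers miR-143-3p and miR-145-5p summed to 108738 in heart 5 and to 60628 to 106583 in the others. In the same heart miR-140-3p was at 1732 scaled CPM, against 554 to 810 in the others, and miR-127-3p of the imprinted Dlk1-Dio3 locus at 2062, against 1215 to 1432. The part of other cell types in the level of miR-455 was not tested, and in such bulk tissue more cells of a type and more RNA per cell cannot be told apart.

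miR-676-5p ran from 15.3 in heart 2 over a median of 20.2 to 29.0 scaled CPM in heart 5, and miR-676-3p from 26.7 over a median of 35.2 to 41.6 in the same hearts. Both arms differed between hearts (adjusted p = 0.000116 and 0.000616), and without hearts 4 and 5 neither did (0.298 and 0.0649). Without heart 5 alone the adjusted p of miR-676-5p was 0.309. The level of miR-676 thus ranged 1.68-fold over hearts while its arm ratio stayed within counting noise. The part of the cell types marked in heart 5 was not tested.

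miR-151 and miR-335 were lowest in heart 5. miR-151-5p and miR-151-3p were both lowest there, at 2034 and 3275 scaled CPM, and both highest in heart 3, at 2868 and 4834. miR-335-3p was highest in heart 3 at 170 and lowest in heart 5 at 103, while miR-335-5p ran from 103 in heart 5 to 138 in heart 2 and was at 109 in heart 3. Heart 3 therefore held more miR-335-3p, with miR-335-5p near its median of 115. All 4 arms differed between hearts (largest adjusted p = 2.86e-06, chi-square test). The sums of the 4 muscle markers and the 3 leukocyte markers were also lowest in heart 5 (90194 and 1888 scaled CPM). Singly, miR-1a-3p was lowest in heart 3, and miR-142-5p and miR-223-3p in heart 6. The part of these cell types was not tested.

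miR-345-5p was highest in heart 1 at 97.4 scaled CPM, against 63.5 to 76.9 in the others, and miR-345-3p was highest in heart 6 at 57.4 and lowest in heart 5 at 37.2. The arms thus peaked in different hearts (adjusted p = 3.38e-09 for 5p and 4.93e-07 for 3p). The call of miR-345-5p was lost without heart 1 (adjusted p = 0.0541) and that of miR-345-3p without hearts 4 and 5 (0.328). In sum, the 2 erythroid markers were also highest in heart 1, as were the 3 leukocyte markers (2795 scaled CPM against 1888 to 2645 in the others). Singly, miR-451-5p, miR-142-5p and miR-223-3p were highest in heart 1, miR-144-3p in heart 2 and miR-150-5p in heart 4. The part of either cell type was not tested.

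miR-872 and miR-339 had the steadiest levels. miR-872 as a hairpin ran from 64.0 over a median of 68.6 to 71.3 scaled CPM, a CV of 4.74%, although its arm share moved from 51.9% to 64.7% 5p. Its 5p arm was highest and its 3p arm low in heart 4, at 46.1 and 25.2, while heart 1 had the lowest 5p and the highest 3p level, at 33.2 and 30.8. Neither arm passed the test of level (adjusted p = 0.103 and 0.183), although miR-872-5p did with library totals (0.00243), with DESeq2 size factors (0.0364) and without heart 3 (0.0461). miR-339 had a CV of 6.12% for the hairpin, and adjusted p of 0.285 for 5p and 0.255 for 3p. For miR-350, the 3p arm was at 17.2 in heart 1 and 16.3 in heart 4 and at 9.97 to 10.7 in the other 4 hearts (adjusted p = 0.000999), while the 5p arm ran only from 7.92 to 10.9 (adjusted p = 0.741).

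**Figure D5:**
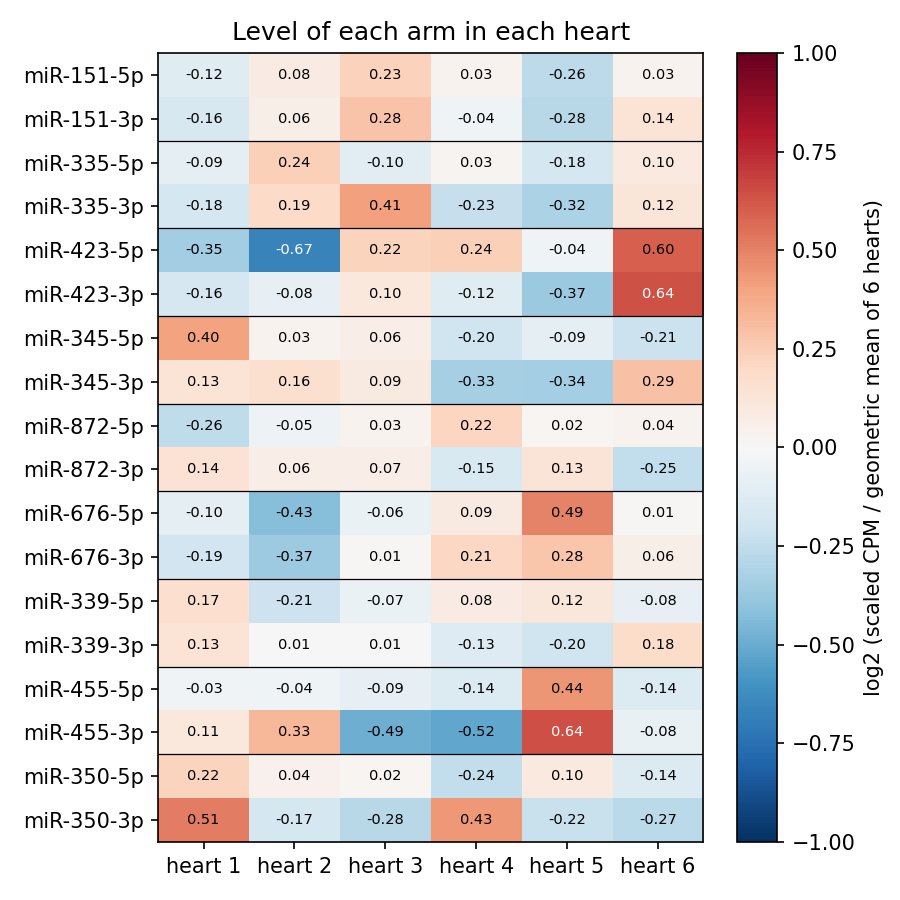
Each cell gives the log2 of the scaled CPM of an arm (line) in a heart (column) over its geometric mean of 6 hearts, in red where higher and blue where lower, with the arms of a hairpin next to each other. Both arms of miR-423 are high in heart 6 (0.60 and 0.64) and both arms of miR-455 in heart 5 (0.44 and 0.64), while in heart 3 miR-335-3p is high (0.41) and miR-335-5p is not (-0.10).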

How the data were processed

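Small RNA of 6 mouse hearts was counted by the authors as raw read counts per mature arm, locus and strand, per the file headers, and these deposited counts were used with no change. The build is GRCm38, and edgeR and DESeq are named with no role, per the submitters' processing notes. The aligner is not given in the sources used here, nor is the treatment of multiply matching reads. Of 1102 entries 1026 are sense. Antisense entries were assigned to a hairpin annotated on the opposite strand (38 of 76) or left out, and entries of one mature name were summed, giving 977 names. The members are single sense loci, to which nothing was summed.

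Arm shares were tested with a chi-square test of 2 arms by 6 libraries on hairpins with a mean of at least 10 reads and a smallest expected count of 1, and levels with a chi-square test of 6 counts against TMM-scaled library sizes (edgeR 4.0.16, SciPy 1.17.1). Both used Benjamini-Hochberg adjustment over the whole table and a threshold of 0.05, and were tested on simulated data. Both compare with counting noise alone, and PCR copies add to the spread. With 1 group, edgeR has no contrast to test. Spreads over many hairpins use log2 of counts plus 0.5. Named hairpins are the members, those next to the thresholds or like the members in ratio, and those sharing a seed. DESeq2 1.42.0 size factors, other filters, a likelihood-ratio test and left-out libraries were the alternatives. The members and lists were chosen with earlier results of these data known. No 2 libraries agreed within sampling noise.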

Additional observations from a re-analysis of the deposited data

Results flagged for a closer look

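Of 36 sets of 6 values checked (the log2 arm ratio, the level of the hairpin and the level of each arm), 2 had a heart far from the other 5, and chance gives about 1 in 20. The log2 arm ratio of miR-335 was -0.65 in heart 3 and between -0.16 and 0.12 in the others. The level of miR-455-5p was 18.8 scaled CPM in heart 5 and between 12.6 and 13.5 in the others.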

How the results depend on the processing

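The number of members whose arm share differed between hearts was 5, ran from 3 to 5 when each heart was left out in turn, with 3 without heart 6, and was 4 without hearts 4 and 5. It was 5 with a mean of at least 100 reads, with no filter on the mean and with the likelihood-ratio test. The log2 ratio of each of the 9 hairpins kept its direction under the alternatives run and moved by less than 1 SD between hearts. The number of member arms whose level differed was 12 and ran from 11 to 14 with 1 heart left out; it was 14 with library totals or DESeq2 size factors, 10 with a mean of at least 100 reads and 8 without hearts 4 and 5. The count of neighbours with overlapping ranges, whose alternatives were chosen after seeing the data, was 3 or 4. No paired analysis was possible because the samples form 1 group. Depth limits miR-350 and miR-455 most, whose arms had 34 to 118 reads.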
